A study of Mus musculus with 6 samples.

Results

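The genes described here are 32 genes of cholesterol synthesis, its SREBP regulators, sterol transport and fatty acid synthesis. They were chosen by gene symbol and not by their values, though with earlier results of these data known. All 32 were present among the 40769 gene identifiers of the deposited expression table, and all 32 were among the 16314 genes tested. They were read in mouse small intestinal enteroids, which are three-dimensional cultures of intestinal epithelium grown in Matrigel. The C57BL/6 enteroids grew in the serum-free ENR medium and carried a piggyBac transposon insert that drove constitutive expression of GFP or of PLAGL2, a zinc finger transcription factor. There was 1 GFP line, 1 PLAGL2 line labelled as having a low level (clone 1) and 1 labelled as having a high level (clone 3), and each line was sequenced once at passage 5 and once at passage 7, giving 6 libraries of polyadenylated RNA. The question set by the labels was the difference between PLAGL2 and GFP overexpression. The promoter of the insert and the age and sex of the mice were not given in the sources used here. Each line stands for its transfected culture alone, so a comparison of lines rests on the spread between passages and a comparison of passages on the spread between lines.

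Cells build cholesterol from acetyl-CoA through mevalonate, farnesyl diphosphate, squalene and lanosterol, and build saturated and unsaturated fatty acids from acetyl-CoA and malonyl-CoA. When sterol in the endoplasmic reticulum is low, the escort protein SCAP carries SREBP factors to the Golgi, where they are cut and released to raise transcription of these enzymes, whereas INSIG proteins hold the SCAP and SREBP complex back when sterol is plentiful. In the small intestine these pathways supply membranes for the renewing epithelium and lipid for the chylomicrons that enterocytes secrete.

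Promoter windows for 25 of the 32 genes were found in the RefSeq set for GRCm38.p6, the mm10 build, with 33 windows in all and none for Fdps, Fdft1, Sqle, Stard4, Scd1, Scd2 and Fads1, each running from 250 bases before to 50 bases after an annotated start site. Both strands were searched for 5 motifs, and no matches to different motifs overlapped in these windows. The GC box, a general promoter element with the letters GGGCGG, stood in 25 of the 33 windows, or 75.8%, against 35.7% of all 32851 windows. The box named for its letters CCAAT, bound by NF-Y, a partner of SREBP at sterol promoters, stood in 21 windows, or 63.6%, against 37.4% of all windows. An E-box with the letters CACGTG was found in 6 windows, or 18.2%, against 7.15%, and these belonged to Dhcr7, Hsd17b7, Insig1, Sc5d and Scap. The sterol response element was searched only in the form TCACNCCAC. This form was found in the window of Hmgcs1 alone among the 25 genes searched, or 3.03% of their windows, against 1.24% of all windows. Other forms of this element were not searched, so the count does not show which of these promoters lack one. The DR4 element, an arrangement bound by liver X receptors, was searched only in the form GGTTACNNNNGGTCA. This form was found in 2 windows, of Srebf1 and Fasn, and in 12 of all windows, or 0.0365%. Other forms of DR4 were not searched, so these counts do not show how common DR4 elements are. The matches in Srebf1 and Fasn are not read as an enrichment. These matches describe letters in a window and were not tested as binding sites.

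The 250 bases before the start site are printed for 4 genes that carry the rarer motifs. Hmgcs1 and Insig1 were lower at passage 7, and Srebf1 and Fasn did not pass the test. Of the other genes with an E-box, Sc5d was lower, and Dhcr7, Hsd17b7 and Scap did not pass, with Scap higher at passage 7 in every line. Whether a motif goes with a change was not tested. Capitals mark the motif match, and each sequence is read 5′ to 3′ on the strand of its gene.
Hmgcs1 (chr13:119690101-119690350, plus strand, sterol response element starting 137 bases before the start site): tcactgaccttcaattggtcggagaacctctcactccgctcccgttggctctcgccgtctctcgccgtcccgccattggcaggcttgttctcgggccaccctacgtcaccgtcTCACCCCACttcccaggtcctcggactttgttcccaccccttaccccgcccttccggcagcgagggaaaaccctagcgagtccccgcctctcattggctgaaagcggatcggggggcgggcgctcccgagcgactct
Insig1 (chr5:28071162-28071411, plus strand, E-box starting 101 bases before the start site): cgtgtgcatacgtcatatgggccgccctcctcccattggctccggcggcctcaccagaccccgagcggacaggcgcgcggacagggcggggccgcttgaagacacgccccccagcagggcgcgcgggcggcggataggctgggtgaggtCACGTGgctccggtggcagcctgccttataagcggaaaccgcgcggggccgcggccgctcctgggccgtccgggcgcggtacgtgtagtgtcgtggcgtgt
Srebf1 (chr11:60210472-60210721, minus strand, DR4 element starting 182 bases before the start site): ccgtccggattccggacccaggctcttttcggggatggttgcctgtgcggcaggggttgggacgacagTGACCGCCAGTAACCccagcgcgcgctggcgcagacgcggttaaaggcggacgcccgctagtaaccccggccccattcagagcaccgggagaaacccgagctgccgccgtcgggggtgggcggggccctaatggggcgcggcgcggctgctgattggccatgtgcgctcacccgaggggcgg
Fasn (chr11:120824548-120824797, minus strand, DR4 element starting 225 bases before the start site): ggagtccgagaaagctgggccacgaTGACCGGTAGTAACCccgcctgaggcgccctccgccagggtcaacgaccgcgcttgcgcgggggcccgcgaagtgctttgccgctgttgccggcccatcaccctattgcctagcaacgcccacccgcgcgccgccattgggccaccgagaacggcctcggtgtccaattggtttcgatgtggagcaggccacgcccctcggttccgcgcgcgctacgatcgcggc

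The expression values were RPKM, which scales the reads of a gene by its length and by the reads of the library, and the steps between low values implied 13779306 to 17319950 reads per library. Plagl2 stood at 22.8 and 23.1 RPKM in GFP at passages 5 and 7, at 30.9 and 26.5 in clone 1, and at 37.2 at both passages in clone 3, an order that follows the labels. The 5 pan-epithelial markers summed to 1702 to 1841 RPKM, whereas 9 markers of fibroblasts, immune, endothelial and fat cells summed to 0.174 to 0.406 RPKM, with Col3a1, Dcn and Adipoq at 0 in every library. Between the passages and between the lines the epithelium itself differed in its markers. The 8 enterocyte markers summed to 5417 to 7090 RPKM at passage 5 and 2614 to 3037 at passage 7, with none at 0 and 8 of 8 lower by the test used below, and the 4 stem cell markers summed to 996 to 1100 and 1307 to 1766, with 4 of 4 higher. Also called higher at passage 7 were 3 of 4 proliferation, 3 of 4 enteroendocrine, 2 of 3 tuft, 1 of 4 Paneth and 1 of 5 pan-epithelial markers. Of the goblet markers 1 of 5 was called lower, as was 1 of the 5 pan-epithelial markers. Of all genes, 6.81% were called higher and 5.3% lower. Mitochondrially encoded genes took 10.67% to 11.18% of RPKM at passage 5 and 12.17% to 13.03% at passage 7. The 5 goblet markers summed to 1446 and 1163 RPKM in GFP at passages 5 and 7. They summed to 925 and 861 in clone 1, and to 469 and 512 in clone 3. For clone 3 against GFP 3 of 5 were called lower, beside 0.153% of all genes. The 4 Paneth markers summed to 2056 and 2165 RPKM in GFP, 1852 and 2052 in clone 1, and 929 and 1238 in clone 3. In bulk RNA fewer cells of a type and less RNA per cell cannot be told apart. The part of these marker and mitochondrial shifts in the passage and line results below was not tested.

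The 32 genes together took 2766 RPKM in GFP, 3143 in clone 1 and 3100 in clone 3 at passage 5, and 2388, 2465 and 2354 at passage 7. Their share of all RPKM was between 0.742% and 0.847% in the passage 5 libraries and between 0.639% and 0.661% in those of passage 7. Every passage 7 library was thus below every passage 5 library, and the lines lay closer together at passage 7. Per length, the highest single levels were those of Scd2, at 450 to 658 RPKM, and Fads2 was next in 5 of the 6 libraries, at 219 to 267, with Hmgcs1 above it in GFP at passage 5. The lowest gene values were those of Idi1, at 3.57 to 5.02, Insig2, at 6.84 to 8.06, and Acaca, at 7.25 to 8.27. The gene value of Idi1 is uncertain, because its deposited transcripts summed to 111 to 151 RPKM, so its low rank is uncertain too.

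**Figure D1:**
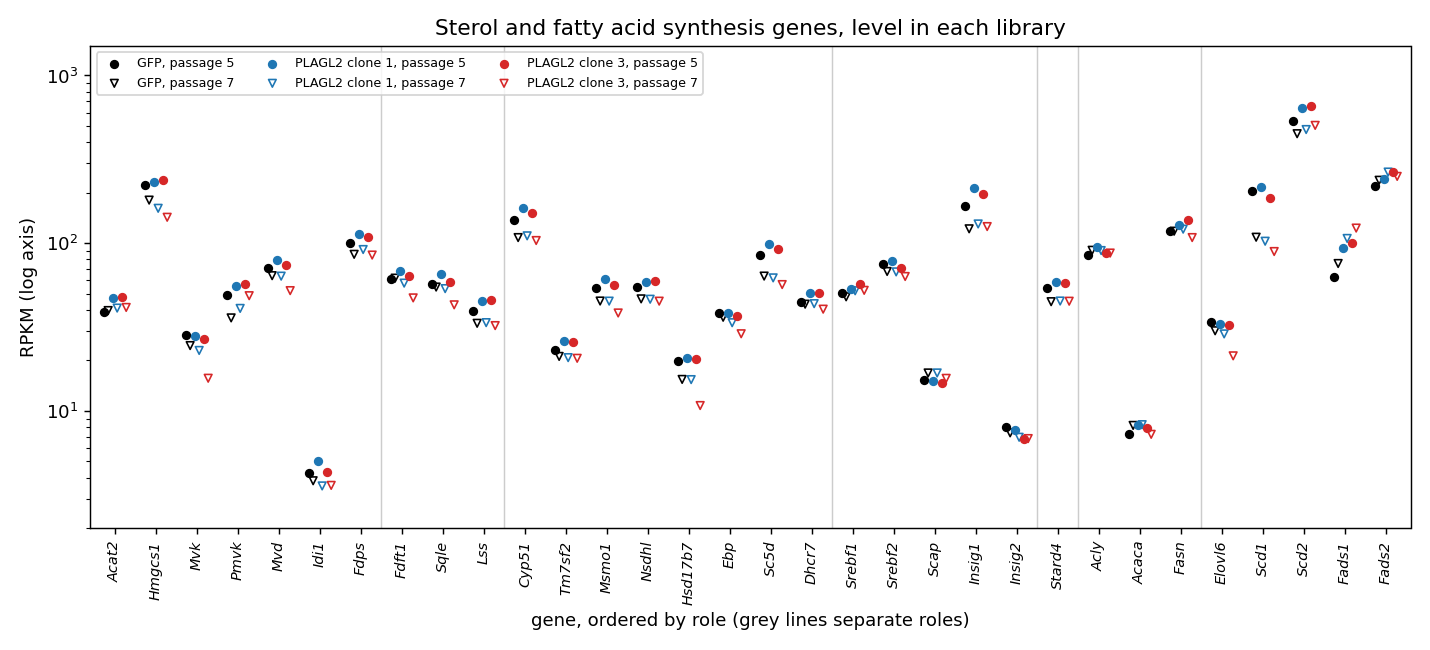
RPKM of the 32 genes in each of the 6 libraries on a log axis, with genes ordered by role; filled circles are passage 5 and open triangles passage 7, and colours mark the line. Scd2, at 450 to 658 RPKM, is the highest and Idi1, at 3.57 to 5.02, the lowest, though the gene value of Idi1 is uncertain. For Scd1, Insig1 and Hmgcs1 the triangles sit below all circles.

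The passage comparison asked how the genes changed between passage 5 and passage 7. It used limma-trend with line as a term, on log2(RPKM + 0.5), and Benjamini-Hochberg adjustment over all 16314 genes. All passage 5 libraries carry the replicate letter A and all passage 7 libraries the letter B. A passage change therefore cannot be told apart from a batch or any other difference between the letters. Of the 32 genes, 13 fell and 1, Fads1, rose at an adjusted p under 0.05, whereas 5.3% of all genes tested were called lower and 6.81% higher. The genes that fell came from every arm of sterol synthesis, from its regulators and from fatty acid desaturation, with log2 changes of -1.02 for Scd1 to -0.18 for Srebf2. Without a test of the group, 27 of 32 changes were below 0, against 35.6% of all genes, and their median was -0.29 against 0.09 for all genes. All 3 passage 7 libraries lay below all 3 passage 5 libraries for 22 of the 32, against 10.7% of all genes, and above them for 1, Scap, against 24.5% of all genes. Within each line taken alone, 25 of the 32 were lower at passage 7 in all 3 lines, as were 17.9% of all genes, and Scap and Fads1 were higher in all 3. The direction differed between lines for Acat2, Fdft1, Acly, Acaca and Fads2.

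These calls rest on all 3 lines. Without either library of GFP or of clone 1, which leaves 2 lines in the passage term, none of the 32 genes passed, and without either library of clone 3, 3 did (Pmvk, Hsd17b7 and Scd1). No gene at all passed without GFP or clone 1, and 730 to 762 of all genes without clone 3, against 1975 with every library. All 14 called genes changed in the same direction in each of the 3 lines, so their direction could not turn in these 6 fits. Leaving out either library of a line gave the same log2 change, because its lone library adds nothing to the passage term. The adjusted p of the 14 genes in these fits was between 0.0316 and 0.205 by limma-trend.

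**Figure D2:**
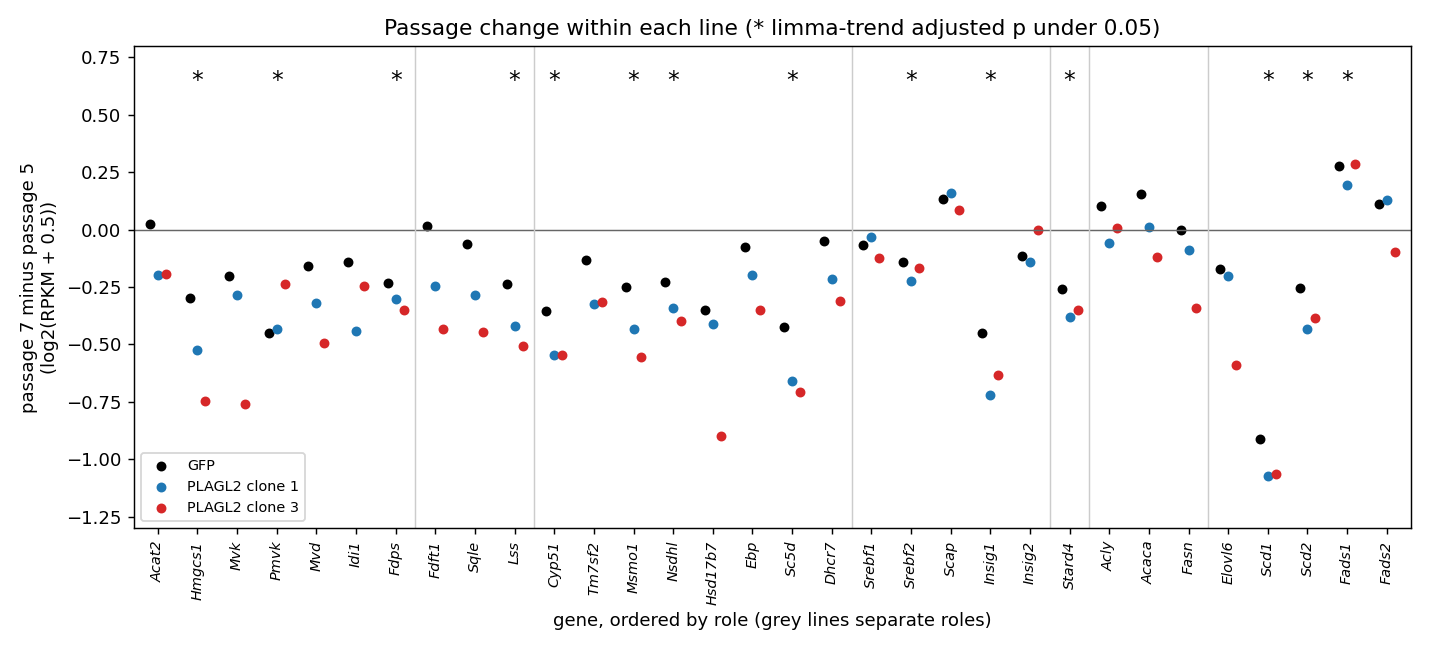
Log2 change from passage 5 to passage 7 in each line for the 32 genes, ordered by role; each point is 1 line and stars mark an adjusted p under 0.05 by limma-trend. Most points lie below 0, Scd1 lies lowest among the starred genes, at -0.91 to -1.07 in the 3 lines, and the 3 points of Fads1 lie above 0.

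In the mevalonate arm, which runs from acetyl-CoA to farnesyl diphosphate, Hmgcs1 encodes the cytosolic synthase that joins acetyl-CoA to acetoacetyl-CoA. Its levels were 222, 233 and 239 RPKM at passage 5 in GFP, clone 1 and clone 3, and 181, 161 and 143 at passage 7. The passages did not overlap, and the order of the lines was reversed between them, with clone 3 highest at passage 5 and lowest at passage 7. The log2 change was -0.52 (SE 0.09, adjusted p = 0.0395 by limma-trend), a mean of 231 ± 8.80 against 162 ± 19.0 RPKM (SD, n = 3). Pmvk, the phosphomevalonate kinase, read 49.2, 55.3 and 57.4 RPKM at passage 5 and 35.9, 40.8 and 48.6 at passage 7. GFP was lowest and clone 3 highest at both passages, and the passages did not overlap, though clone 3 at passage 7 came within 0.6 RPKM of GFP at passage 5. Its log2 change was -0.37 (SE 0.06, adjusted p = 0.0303 by limma-trend). Fdps, which joins isoprenoid units into farnesyl diphosphate, read 101, 113 and 108 RPKM and then 85.8, 91.6 and 84.9. It was lower at passage 7 in each line, with a log2 change of -0.29 (SE 0.04, adjusted p = 0.0249 by limma-trend).

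The other 4 genes of this arm did not pass the test. Mvk, the mevalonate kinase, read 28.2, 28.0 and 26.8 RPKM at passage 5, and 24.5, 22.9 and 15.7 at passage 7. Its passage 5 libraries were close together, and clone 3 stood apart at passage 7, so that the log2 change of -0.42 had an SE of 0.12 (adjusted p = 0.0978 by limma-trend). Mvd, the decarboxylase that makes isopentenyl diphosphate, changed by -0.33 (adjusted p = 0.0583) and Acat2, the cytosolic thiolase at the head of the pathway, by -0.12 (adjusted p = 0.222). Idi1, the isomerase of isopentenyl diphosphate, read 4.28, 5.02 and 4.35 RPKM at passage 5 and 3.83, 3.57 and 3.60 at passage 7, the only levels of the arm under 10 RPKM. Its gene value is uncertain, because its 5 deposited transcripts summed to 32 times the gene value, whereas that ratio was 0.611 to 4.92 in the other 31 genes and at or above 32 in 0.737% of 11668 genes. Summed over transcripts, Idi1 read 149, 151 and 145 RPKM and then 121, 113 and 111, and it passed the test on that scale. The cause of the gap between the gene and transcript values was not tested.

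The squalene arm holds the enzymes that commit farnesyl diphosphate to sterols. Lss, which folds squalene epoxide into lanosterol, read 39.3, 45.1 and 46.0 RPKM at passage 5 and 33.3, 33.6 and 32.3 at passage 7. The 3 lines differed by 1.33 RPKM at passage 7 and by 6.67 at passage 5, and the log2 change was -0.39 (SE 0.06, adjusted p = 0.0336 by limma-trend). Sqle, the squalene epoxidase and a second control point of the pathway, read 57.3, 65.4 and 58.7 and then 54.7, 53.6 and 42.9 RPKM. Its passages did not overlap, yet the step in GFP was small beside that in clone 3, and the log2 change of -0.27 (SE 0.08) did not pass (adjusted p = 0.103). Fdft1, the squalene synthase, was level in GFP, at 61.2 and 61.9 RPKM, and lower at passage 7 in clone 1, at 68.6 and 57.8, and in clone 3, at 64.0 and 47.2 (log2 change -0.22, adjusted p = 0.179).

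After lanosterol, 8 of the listed enzymes remove methyl groups and move double bonds to reach cholesterol, and 4 of them fell. Cyp51, the demethylase that acts on lanosterol, read 138, 162 and 152 RPKM at passage 5 and 108, 111 and 104 at passage 7. All 3 lines came to within 7 RPKM of each other at passage 7, and the log2 change was -0.48 (SE 0.05, adjusted p = 0.0202 by limma-trend). Sc5d, the desaturase that makes the precursor of the last reductase step, read 85.6, 98.3 and 92.7 and then 63.6, 62.1 and 56.6 RPKM. This was the deepest fall among the sterol enzymes that passed, with a log2 change of -0.60 (SE 0.07, adjusted p = 0.0203). Msmo1 and Nsdhl, which oxidize and remove the paired methyl groups of the sterol ring, fell too. Msmo1 read 53.8, 61.0 and 56.7 and then 45.2, 45.1 and 38.4 RPKM (log2 change -0.41, SE 0.07, adjusted p = 0.0347). Nsdhl read 54.6, 58.8 and 59.6 and then 46.6, 46.3 and 45.1 RPKM (log2 change -0.32, SE 0.05, adjusted p = 0.0284).

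Hsd17b7, the ketoreductase of the same demethylation steps, read 19.8, 20.6 and 20.5 RPKM at passage 5, and 15.4, 15.4 and 10.8 at passage 7. As for Mvk, the passage 5 libraries were close, GFP and clone 1 were alike at passage 7 and clone 3 stood lower, and its log2 change of -0.55 had a wide SE of 0.12 (adjusted p = 0.0574). Tm7sf2, a sterol reductase, changed by -0.26 (adjusted p = 0.0545), Ebp, the sterol isomerase, by -0.21 (adjusted p = 0.1), and Dhcr7, the reductase of the last step, by -0.19 (adjusted p = 0.107), so none of the 3 passed. For each of these 3 genes, as for all 8 of this arm, every passage 7 library was below every passage 5 library. Summed over the 18 enzymes of sterol synthesis, the level was 1131, 1256 and 1220 RPKM at passage 5 in GFP, clone 1 and clone 3, and 963, 947 and 856 at passage 7, with clone 3 lowest of all.

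Among the regulators, Insig1, a target of SREBP that retains SCAP in the endoplasmic reticulum, had the largest step. It read 166, 215 and 195 RPKM at passage 5 and 122, 130 and 126 at passage 7. The passages were far apart in each line and the clones exceeded GFP at both, and the log2 change was -0.60 (SE 0.06, adjusted p = 0.0186 by limma-trend), from a mean of 192 ± 24.3 to 126 ± 4.20 RPKM (SD, n = 3). Srebf2, the factor most tied to sterol genes, read 74.9, 78.8 and 71.2 and then 67.8, 67.4 and 63.3 RPKM. This step was small, at -0.18 (SE 0.03, adjusted p = 0.0449), and the passages did not overlap. The call was lost without the expression filter, with quantile normalization, without mitochondrial genes, with line left out of the fit and with transcript values summed per gene (adjusted p of 0.0585 to 0.105). Stard4, a cytosolic carrier of sterol and itself a target of SREBP, read 53.7, 59.0 and 57.5 and then 44.8, 45.2 and 45.1 RPKM, so that the lines were within 0.4 RPKM of each other at passage 7 (log2 change -0.33, SE 0.04, adjusted p = 0.0219).

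The rest of the regulators did not pass. Scap read 15.3, 15 and 14.7 RPKM at passage 5 and 16.8, 16.8 and 15.6 at passage 7, and was the one gene of the 32 with all passage 7 libraries above all passage 5 libraries (log2 change 0.13, SE 0.04, adjusted p = 0.122). Insig2, the second INSIG protein, read 8.06, 7.71 and 6.84 and then 7.40, 6.96 and 6.84 RPKM, from 354 to 465 reads per library, and its passages overlapped (log2 change -0.09, adjusted p = 0.376). Srebf1, the factor most tied to fatty acid genes, read 50.2, 53.3 and 57.1 and then 47.9, 52.0 and 52.3 RPKM, with overlapping passages (log2 change -0.08, adjusted p = 0.216). The gene has alternative first exons, and the DR4 match shown above lies before the downstream one. The transcript Srebf1-005, which starts 23 bases from the upstream RefSeq start, read 27.8, 25.9 and 28.5 RPKM at passage 5 and 28.6, 25.7 and 25.2 at passage 7. The transcript Srebf1-007, which starts 6 bases from the downstream start, read 14.5, 19.0 and 19.1 and then 14.5, 17.7 and 15.4 RPKM. The upstream transcript was thus the more abundant in every library, and the downstream one was higher in every PLAGL2 library than in both GFP libraries, values that were not tested.

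None of the 3 enzymes that make palmitate passed the test. Acly, which supplies cytosolic acetyl-CoA, read 84.5, 94.2 and 86.9 RPKM at passage 5 and 90.7, 90.4 and 87.3 at passage 7. Acaca, the acetyl-CoA carboxylase, read 7.30, 8.21 and 7.92 and then 8.19, 8.27 and 7.25, and Fasn, the fatty acid synthase, 118, 129 and 137 and then 118, 121 and 108. The passages overlapped for all 3, and their log2 changes were 0.02, 0.02 and -0.14 in that order, with adjusted p of 0.826, 0.899 and 0.252 by limma-trend. For Fasn the 95% interval of the change ran from -0.34 to 0.06, which holds the changes of Srebf2, Fdps, Nsdhl and Stard4 and not those of Scd1 or Hmgcs1, and within clone 3 alone Fasn changed by -0.34. Whether these 3 genes differed in their change from the sterol enzymes was not tested.

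Downstream of palmitate the genes went different ways. Scd1, the desaturase that makes oleate from stearate and a target of both SREBP and liver X receptors, read 205, 217 and 187 RPKM at passage 5 and 109, 103 and 89.2 at passage 7. All 3 lines dropped, and this was the largest change of the 32 genes, from a mean of 203 ± 14.9 to 100 ± 9.94 RPKM (SD, n = 3), with a log2 change of -1.02 (SE 0.05, adjusted p = 0.00989 by limma-trend). Its paralog Scd2, which lies beside it at chr19:44293674-44306864 against chr19:44394455-44407879 for Scd1, read 536, 642 and 658 and then 450, 476 and 504 RPKM. Scd2 also fell in each line, but by less, with a log2 change of -0.36 (SE 0.05, adjusted p = 0.03). This call was lost without the filter, with quantile normalization, with line left out and with summed transcripts (adjusted p of 0.0597 to 0.0748). How reads shared by such paralogs were assigned is not given in the sources used here. Elovl6, which extends palmitate to stearate, read 33.9, 33.2 and 32.3 and then 30.0, 28.8 and 21.3 RPKM. Clone 3 at passage 7 again stood lowest, and the log2 change of -0.32 (SE 0.10) did not pass (adjusted p = 0.1).

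The desaturases of polyunsaturated fatty acids, Fads1 and Fads2, are neighbours on chromosome 19, at chr19:10182888-10196877 and chr19:10062765-10101746. Fads1 read 62.4, 93.2 and 101 RPKM at passage 5 and 75.6, 107 and 123 at passage 7. It rose in each of the 3 lines (log2 change 0.25, SE 0.04, adjusted p = 0.0286 by limma-trend), although the passages overlap across lines because GFP lay below the clones at both. This call was lost with median-ratio scaling, without the expression filter, with line left out of the fit and with transcript values summed per gene. Fads2 read 219, 243 and 267 and then 237, 265 and 250 RPKM, with GFP and clone 1 higher and clone 3 lower at passage 7 (log2 change 0.05, adjusted p = 0.595).

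The comparison of lines asked whether PLAGL2 changed these genes. With both clones against GFP, none of the 32 genes passed in limma-trend, against 0.00613% of all genes called in either direction, and 1 of the 32, Fads1, had an unadjusted p under 0.05, beside 5.95% of all genes. None passed for clone 1 against GFP, with 0.0306% of all genes called, for clone 3 against GFP, with 0.349%, or for clone 3 against clone 1, with 0.0245%. In these 3 comparisons 1, 1 and 0 of the 32 had an unadjusted p under 0.05, Fads1 in both cases, beside 3.95%, 9.04% and 5.13% of all genes. Also, voom on the recovered reads called none of the 32 in any of the 4 comparisons. The clones share the GFP libraries, so their values are given side by side and not set against each other. The median log2 change of the 32 genes was 0.03 for both clones, 0.08 for clone 1 and -0.02 for clone 3 against GFP, beside 0.01 for all genes in each. The sign of these medians changed with 1 library, in fits without a passage term that then set unequal passages against each other. Within passage 5 the medians were 0.16 for clone 1 and 0.11 for clone 3 against GFP, and within passage 7 -0.002 and -0.10. With 1 library left out, the median ran from -0.06 to 0.12 for both clones, from -0.09 without clone 1 at passage 5 to 0.23 without clone 1 at passage 7 for clone 1, and from -0.16 without clone 3 at passage 5 to 0.22 without clone 3 at passage 7 for clone 3. Leaving out GFP at passage 7 also turned the medians of both clones and of clone 1 below 0, to -0.06 and -0.01, and leaving out GFP at passage 5 turned that of clone 3 to 0.05. For both clones the median was also below 0 without clone 1 or clone 3 at passage 5, at -0.02 and -0.002.

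Fads1 was the gene that differed most between the lines. Its 2 GFP libraries, at 62.4 and 75.6 RPKM, lay below the 93.2 and 107 of clone 1 and the 101 and 123 of clone 3. The mean was 69.0 ± 9.33 RPKM in GFP (SD, n = 2) and 112 ± 15.7 in clone 3 (SD, n = 2), a log2 difference of 0.69 (SE 0.15, 95% interval 0.31 to 1.07, adjusted p = 0.209). With passage as a block, which removes the shared step from passage 5 to 7, the adjusted p was 0.0145 for clone 3, the one gene of the 32 to pass in any line comparison, where that fit called 2.1% of all genes. Over all alternatives the adjusted p for clone 3 was between 0.0145 and 0.711. For clone 1 the log2 difference was 0.53 (SE 0.15, adjusted p = 0.909), and for both clones 0.61 (SE 0.13, adjusted p = 0.41). In 4 of the 32 genes, Fads1, Fads2, Srebf1 and Acat2, all 4 PLAGL2 libraries were above both GFP libraries, against 7.96% of all genes. The means of the other 3 differed little, at 256 against 228 RPKM for Fads2, 53.7 against 49.0 for Srebf1 and 44.2 against 39.3 for Acat2.

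The next largest differences were not called. Pmvk, with GFP below each clone within each passage, differed by 0.18 in clone 1 and 0.33 in clone 3 on the log2 scale (adjusted p = 1 and 0.812). Mvk differed by -0.05 and -0.35 (adjusted p = 1 and 0.847), the latter with clone 3 at passage 7 as its lowest library, and without that library the difference was 0.03. Insig1 differed by 0.23 and 0.14 (adjusted p = 1 and 0.977). Without clone 1 at passage 5 the clone 1 differences of Pmvk and Insig1 were -0.04 and -0.13, and without GFP at passage 7 that of Pmvk was -0.05. These fits, like that of Mvk without clone 3 at passage 7, set unequal passages against each other. At passages 5 and 7 taken alone, clone 1 differed from GFP by 0.166 and 0.185 for Pmvk and by 0.367 and 0.096 for Insig1. Clone 3 differed from GFP by -0.072 and -0.631 for Mvk. For Scd1, whose level in each line spans both passages, the interval for clone 3 against GFP ran from -1.54 to 1.12 with passage left in the spread, while clone 3 differed from GFP by -0.13 at passage 5 and -0.28 at passage 7.

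**Figure D3:**
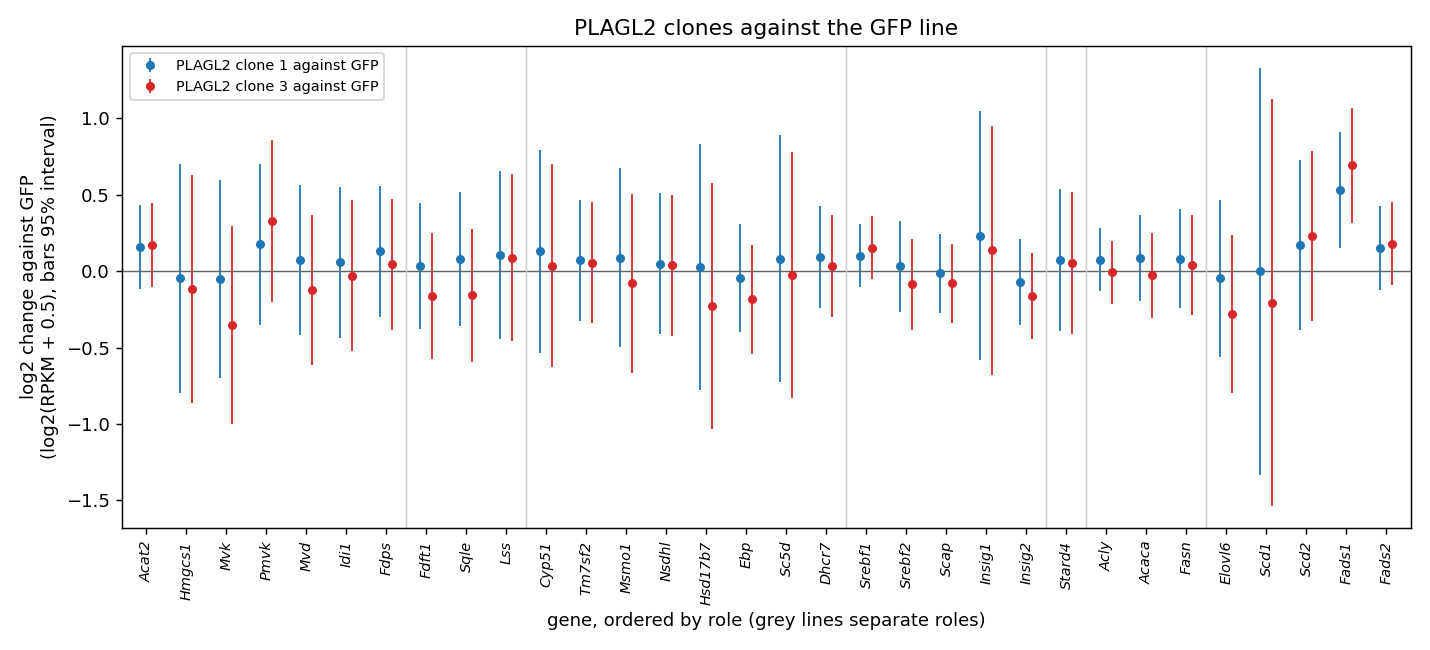
Log2 difference of PLAGL2 clone 1 and clone 3 from the GFP line for the 32 genes, ordered by role; bars are 95% intervals from limma-trend with 2 libraries per line. All intervals other than those of Fads1 include 0, and that of Fads1 in clone 3 runs from 0.31 to 1.07 before adjustment over all genes.

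Between the clones, clone 3 was below clone 1 for 26 of the 32 genes, against 47.1% of all genes, with a median of -0.09 on the log2 scale. These values turned with 1 library left out, in fits without a passage term that then set unequal passages of the clones against each other. Without clone 3 at passage 7 clone 3 was below clone 1 for 6 of the 32, with a median of 0.10, and without clone 1 at passage 5 for 13, with a median of 0.05. The largest single differences were Mvk at -0.30, Hsd17b7 at -0.25 and Sqle at -0.24, each with an adjusted p of 1 in limma-trend. Without clone 3 at passage 7 the differences of Mvk and Hsd17b7 were above 0, at 0.08 and 0.20. Within each passage, however, clone 3 was below clone 1 for both genes. Mvk read 26.8 RPKM in clone 3 and 28.0 in clone 1 at passage 5, and 15.7 and 22.9 at passage 7. Hsd17b7 read 20.5 and 20.6 RPKM, and then 10.8 and 15.4.

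The lines were also compared within each passage, where there is 1 library per line and no test. At passage 5, clone 1 was above GFP in 28 of the 32 genes and clone 3 in 25, beside 49.4% and 50.8% of all genes. At passage 7, clone 1 was above GFP in 14 and below it in 17, beside 51.7% and 47.7% of all genes. Clone 3 was above GFP in 8 and below it in 24, beside 52.2% and 47.3% of all genes. The median passage change of the 32 genes was -0.15 in GFP, -0.29 in clone 1 and -0.35 in clone 3, while all genes had medians of 0.08 in each line. The squalene arm showed the widest range, with medians of -0.06, -0.29 and -0.45, followed by the enzymes after lanosterol, with -0.24, -0.38 and -0.47. The passage change was lowest in clone 3 for 19 of the 32 genes, beside 36.7% of all genes.

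The difference of the passage change between the PLAGL2 lines and GFP was then tested gene by gene, a comparison added after the data were seen. It was below 0 for 30 of the 32 genes, beside 48.6% of all genes, with a median of -0.20 on the log2 scale. None of the 32 genes and none of all genes passed in limma-trend, the lowest adjusted p among the 32 was 1, and none of the 32 had an unadjusted p under 0.05, as 2.55% of all genes did. For Hmgcs1, which changed by -0.30 in GFP, -0.53 in clone 1 and -0.75 in clone 3, the difference was -0.34 (SE 0.14, adjusted p = 1). With 1 GFP culture and 2 residual degrees of freedom, a deeper fall in the PLAGL2 lines was not shown by this test.

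Genes that border these pathways were read from 5 lists, of which 64 genes were tested. At passage 7, 18 of them were called lower and none higher in limma-trend, beside 5.3% and 6.81% of all genes, and none was called in any line comparison, where 3 (both clones), 2 (clone 1), 7 (clone 3) and 1 (clone 3 against clone 1) of the 64 had an unadjusted p under 0.05, beside 5.95%, 3.95%, 9.04% and 5.13% of all genes. In sterol transport, esterification and efflux 7 of 14 fell. These included Npc1l1, the brush border protein of sterol uptake, from 81.3 ± 4.84 to 53.6 ± 2.25 RPKM (SD, n = 3), and Abcg5 and Abcg8, the sterol efflux pair and targets of liver X receptors, from 54.7 ± 5.01 to 30.0 ± 2.96 and from 40.3 ± 3.17 to 22.8 ± 1.51. The others were Abca1, Soat2, Osbp and Gramd1b, with log2 changes of -1.13, -0.73, -0.22 and -0.53. Soat1, the widely expressed sterol esterifying enzyme, was at 24.6 RPKM at passage 5 and 35.3 at passage 7 and did not pass (log2 change 0.48, adjusted p = 0.0554), beside the fall of its paralog Soat2, the form found in enterocytes and liver cells.

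In glycerolipid synthesis 4 of 9 fell, and these were enzymes of triglyceride assembly. Dgat2 went from 57.9 ± 11 to 28.1 ± 7.40 RPKM (log2 change -1.04, adjusted p = 0.0108), Mogat2 from 64.5 ± 1.81 to 34.2 ± 3.56 (adjusted p = 0.0109), and Dgat1 and Agpat2 by -0.60 and -0.49 on the log2 scale. Of the other fatty acid genes 4 of 22 fell, namely Me1, a source of NADPH, Acsl5, which activates fatty acids, Elovl1 and Lpcat3. Of the other sterol pathway genes 2 of 8 fell, Por and Cyb5r3, which pass electrons to sterol oxidases, with log2 changes of -0.54 and -0.45. Of the SREBP processing and sterol sensing genes 1 of 11 fell, Erlin1, at -0.28, a count near the 5.3% of all genes. Several of these genes are ones that enterocytes express at high levels. The enterocyte markers fell by 0.79 to 1.78 on the log2 scale, and the changes of the 32 genes ran from -1.02 to 0.25. The part of the enterocyte marker shift in these changes was not tested.

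**Figure D4:**
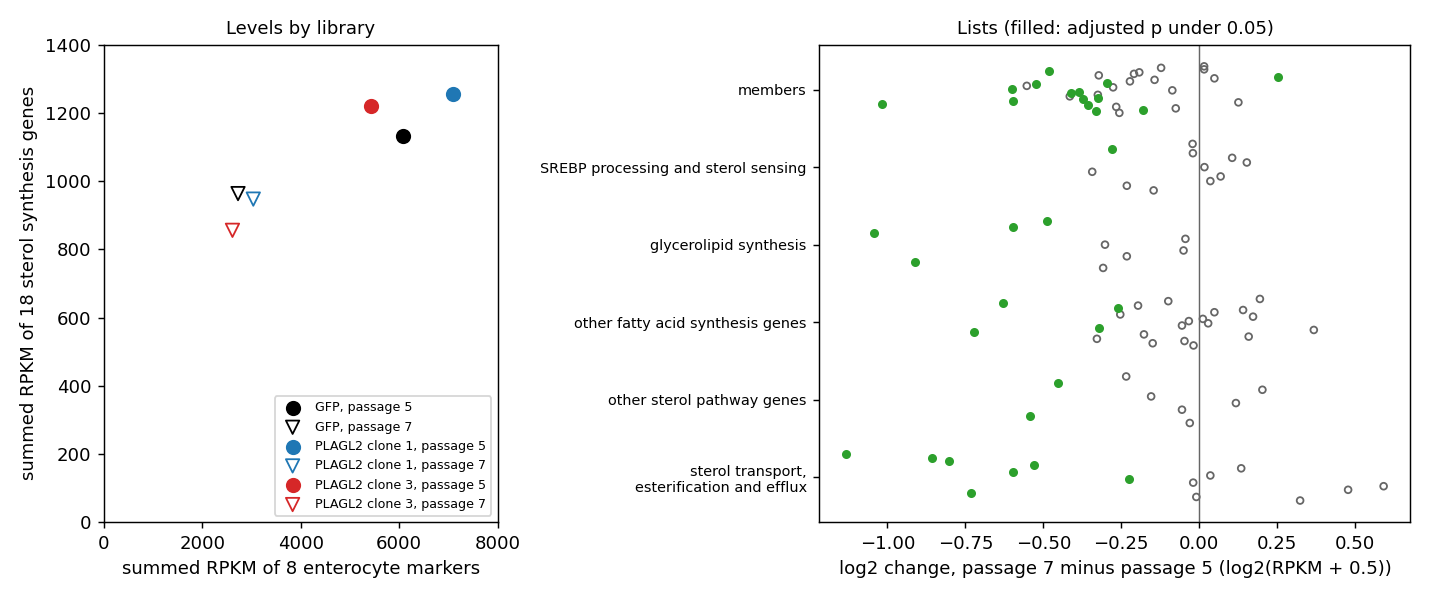
Left, summed RPKM of the 18 sterol synthesis enzymes against summed RPKM of the 8 enterocyte markers in each of the 6 libraries, with filled circles for passage 5 and open triangles for passage 7. Right, log2 change from passage 5 to passage 7 for each gene of the 32 and of the 5 other lists, with filled points at an adjusted p under 0.05 by limma-trend; both sums separate the passages, and the filled point above 0 is Fads1.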

How the data were processed

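Per the labels, polyadenylated RNA was sequenced from 6 enteroid libraries. The authors deposited RPKM per gene and per transcript, and the submitters' processing notes name STAR, Subread, featureCounts, edgeR and mm10 without their order. Repeated entries of an identifier (614 in the gene table) held identical values and were used once. Genes with RPKM of at least 0.5 in at least 2 libraries were kept, log2(RPKM + 0.5) was fitted genome-wide with limma 3.58.1 (limma-trend) in R 4.3.3, and p-values were adjusted over all 16314 genes. The pseudocount makes fold changes of low genes smaller than their RPKM ratios. PLAGL2 against GFP had 4 residual degrees of freedom, contrasts of single lines 3, and passage, with line as a term, 2. The whole-read steps of RPKM, with GENCODE M21 exon lengths for 66.3% of the 25468 genes above 0 and fitted lengths for 33.7% (tolerance 0.001 read), gave the library totals and the reads used by voom. Reads summed over genes exceeded these totals, and how reads at several genes were counted is not given in the sources used here.

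Replicate letters mark the passage, and libraries of the same letter deviated together, with correlations across 16314 genes of 0.322, 0.276 and 0.278 between pairs of lines, so a fit with the letter as a block was an alternative. Every gene that passed the test, the largest 3 changes of each comparison and the regulatory genes are given in each library. Of the other lists, genes that passed are named, with Soat1 named after its values were seen, and the symbols Faxdc2 and Spring1 had no match. The genes and lists were chosen with earlier results of these data known. The labels do not say that the libraries of a line came from separate cultures, so p-values measure the spread between these libraries, which may be technical. The model code was tested on simulated data. Python 3.11.15, pandas 2.3.3, numpy 2.4.6 and matplotlib 3.10.9 were used.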

Additional observations from a re-analysis of the deposited data

Results flagged for a closer look

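For 11 of the 32 genes both PLAGL2 clones were above GFP at passage 5 and below GFP at passage 7, which drew attention as opposite directions under the same contrast. The share of all genes with this pattern was not computed, so whether the count is unusual is not known. Both clones are set against the same GFP library at each passage, so their directions are not independent. The difference of the passage change, PLAGL2 lines minus GFP on the log2 scale, was -0.338 for Hmgcs1, -0.356 for Fdft1, -0.302 for Sqle, -0.302 for Hsd17b7, -0.258 for Sc5d and -0.252 for Mvd. It was -0.245 for Msmo1, -0.201 for Idi1, -0.187 for Tm7sf2, -0.143 for Nsdhl and -0.128 for Acly. Each was tested with the interaction term in limma-trend, and the adjusted p was 1 for every one of them.

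Insig2 in clone 1 at passage 5, at 7.71 RPKM, stood apart from the other 3 PLAGL2 libraries, at 6.84 to 6.96, with a gap of 0.86 of the range of the 4 libraries, past the limit of Dixon's test at the 95% level. Chance alone marks about 1 in 20 such groups, and 32 genes were looked at.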

How the results depend on the processing

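The count of 14 genes called between passages was within 1.5 times with a pseudocount of 0.1 or 1 (14 each), quantile normalization (11), median-ratio scaling (16), mitochondrial genes left out (13), line left out as the replicate block (11) and transcript values summed per gene (10). It was 5 without the filter on low values, which raises the number of genes tested, and 22 with voom on the recovered reads, and 0 to 3 with 1 library left out, which leaves 2 lines. With the replicate block added to the line comparisons, the pairing by passage moved the count for clone 3 against GFP from 0 to 1 (Fads1), and no other count of the 32 genes. Of the 14 genes, Cyp51, Sc5d, Insig1 and Scd1 passed in all 9 of these fits with every library, and Srebf2 passed in the fewest, 4. Over all genes, the passage count of 1975 was 629 without the filter, 806 with summed transcripts and 3884 with voom, and the line counts of 1, 5, 57 and 4 ran from 0 to 17, 0 to 22, 2 to 342 and 0 to 47, the highest of clone 3 against GFP and of clone 3 against clone 1 with the block and the others without the filter. With 1 library left out, the log2 difference of Pmvk for clone 1 against GFP ran from -0.05 to 0.401 and reversed when passage 7 of GFP (-0.05) or passage 5 of clone 1 (-0.041) was dropped. That of Insig1 ran from -0.129 to 0.591. Mvk ran from -0.731 to 0.028 for clone 3 against GFP and from -0.678 to 0.081 against clone 1, and Hsd17b7 from -0.699 to 0.198 against clone 1, each reversed without clone 3 at passage 7. Leaving out 1 library set unequal passages against each other in these line fits, which had no passage term. Read within each passage, the differences of Pmvk, Insig1, Mvk and Hsd17b7 named here each had the same sign at both passages. The causes were not tested. Voom, summed transcripts and the interaction term were chosen after seeing the data. A lone library in a line is assumed to vary like the other lines. Genes with few reads carry the largest counting error, such as Idi1, whose uncertain gene value rests on 185 reads in 1 library.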
